A study of Mus musculus with 60 samples.

Results

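The mitochondrial chaperone and import genes Hspd1, Hspe1, Hspa9, Trap1, Timm10, Timm44, Timm50, Tomm40, Grpel1 and C1qbp were followed in laser-captured pancreatic islets of mice in which MYC can be switched on in beta cells. The 10 genes were taken by name from the array annotation, and all 10 were among the 13176 genes tested, out of 18193 genes named on the array. They have 21 probe sets, and for each gene the probe set with the widest interquartile range over the arrays in use stood for the gene. The other 11 probe sets are described with the gene they belong to.

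Almost all mitochondrial proteins are encoded in the nucleus, made in the cytosol and imported unfolded. Tomm40 is the channel of the outer membrane, Timm50 receives proteins with a cleavable targeting signal at the inner membrane, and Timm10 is a small chaperone that carries hydrophobic proteins across the space between the membranes. Hspa9, the mitochondrial Hsp70, is held at the import channel by Timm44 and pulls proteins into the matrix, with Grpel1 exchanging its nucleotide. In the matrix, Hspd1 and Hspe1 form the Hsp60 and Hsp10 chaperonin that folds imported proteins, Trap1 is the mitochondrial Hsp90, and C1qbp, also called p32, is a matrix protein needed for mitochondrial translation.

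All mice were male CBA-C57BL/6 animals that carry pIns-MYCERTAM, a MYC fusion that an insulin promoter expresses in beta cells and that is active only while 4-hydroxytamoxifen (4OHT) is present. MycON mice received 1 mg of 4OHT daily into the abdominal cavity, with exendin-4, an agonist of the GLP-1 receptor, at 50 µg/kg under the skin 2 times a day, or with water. MycOFF mice received peanut oil in place of 4OHT, again with exendin-4 or with water, and the injections of exendin-4 or water had begun 2 days earlier. Islets were taken at 4, 8, 16, 32 and 72 h. The labels give the age as 8 to 12 weeks in one place and as 3 months in another. The fusion is carried by the MycOFF mice as well, and no group without it received 4OHT, so that effects of 4OHT itself and of MYC cannot be told apart. The 52 arrays that the submitters kept comprised 12 of MycON exendin-4, 13 of MycON water, 15 of MycOFF exendin-4 and 12 of MycOFF water islets, 2 or 3 in each of the 20 groups. The labels call them biological replicates without tying an array to an animal, so p-values measure the spread between these samples.

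Each value tells how far, on the log2 scale, a probe set lay on an array from its median over the 60 deposited arrays, so that 1 unit is a 2-fold difference between arrays, and neither the level of a gene nor the presence of an islet marker can be read from it. The standard deviation of all values of an array ran from 0.284 to 0.949 among the kept arrays. It was widest in MycOFF exendin-4 16 h replicate 3 (0.949), MycOFF exendin-4 72 h replicate 2 (0.811), MycON exendin-4 72 h replicate 1 (0.705) and MycOFF exendin-4 4 h replicate 2 (0.687), and counts and medians of the MYC effect are also given without these 4 arrays. The fusion is switched on as a protein, so its transcript gives no check of the labels. Of 8 genes known to respond to MYC 3 were higher in MycON islets over both injections and 0 lower (Nop56, Odc1 and Fbl). Of all genes tested 9.93% were higher. Cad, Ncl, Ldha, Cdk4 and Npm1 did not pass, with log2 differences from 0.26 (Npm1) to 0.95 (Ncl). In whole islets, fewer cells of a type and less RNA per cell cannot be told apart.

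RefSeq promoter windows (build GRCm38.p6, 250 bases before to 50 after the annotated start) were found for 9 of the 10 genes, with 2 windows for Hspd1. They are shown because Hspd1 and Hspe1 lie next to each other and point in opposite directions, and because sites of the kind that MYC binds can be looked for in them. The letters TTCNNGAANNTTC of a heat shock element, on either strand, occurred in the shared stretch between Hspe1 and the inner start of Hspd1 as 2 overlapping matches, and in 0.603% of all 32851 windows. The E-box CACGTG, the letters of the core MYC site, occurred at position -80 from the outer start of Hspd1 and at position 29 of Timm10, against 7.15% of all windows. The letters GCGCANGCGC of an NRF1-type site, on either strand, occurred in the outer window of Hspd1, against 4.6% of all windows. CCAAT, on either strand, occurred in the windows of 6 genes, 5 times in that of Tomm40, against 37.4% of all windows. A match describes these letters only. In the sequences below, written 5′ to 3′ on the strand of the gene, capitals mark the matched letters.
Hspe1, heat shock element, chr1:55088028-55088147, plus strand: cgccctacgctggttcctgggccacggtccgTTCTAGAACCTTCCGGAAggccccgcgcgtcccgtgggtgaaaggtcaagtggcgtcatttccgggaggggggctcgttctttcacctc
Hspd1, E-box, chr1:55088306-55088335, minus strand: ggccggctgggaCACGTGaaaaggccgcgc
Hspd1, NRF1-type site, chr1:55088283-55088312, minus strand: gccgcgcagcGCGCAGGCGCactcagcccc
Timm10, E-box, chr2:84827036-84827065, plus strand: tccggaagtgaccCACGTGcttcttatttc
Grpel1, CCAAT on the other strand, chr5:36465035-36465094, plus strand: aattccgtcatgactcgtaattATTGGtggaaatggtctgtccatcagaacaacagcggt
C1qbp, CCAAT on the other strand, chr11:70983147-70983206, minus strand: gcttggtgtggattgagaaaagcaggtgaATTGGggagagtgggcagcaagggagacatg
Tomm40, CCAAT, chr7:19715460-19715659, minus strand: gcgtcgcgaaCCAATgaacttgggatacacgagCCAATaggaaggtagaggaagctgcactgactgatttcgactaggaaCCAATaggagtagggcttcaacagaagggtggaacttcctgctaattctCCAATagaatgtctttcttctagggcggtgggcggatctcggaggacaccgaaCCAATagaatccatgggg

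The first comparison asked what MYC activation did to these genes, as the mean of 5 times and both injections. Of the 10 genes, MycON islets had 6 higher and 0 lower than MycOFF islets at an adjusted p under 0.05 (limma, Benjamini-Hochberg over all 13176 genes), where 9.93% of all genes tested were higher. The 6 were C1qbp, Timm50, Hspd1, Grpel1, Hspa9 and Hspe1. The log2 difference was positive for 9 of 10 genes, with a median of 0.47 against -0.03 over all genes tested. The values of MycON and MycOFF arrays overlapped for all 10 genes.

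**Figure D1:**
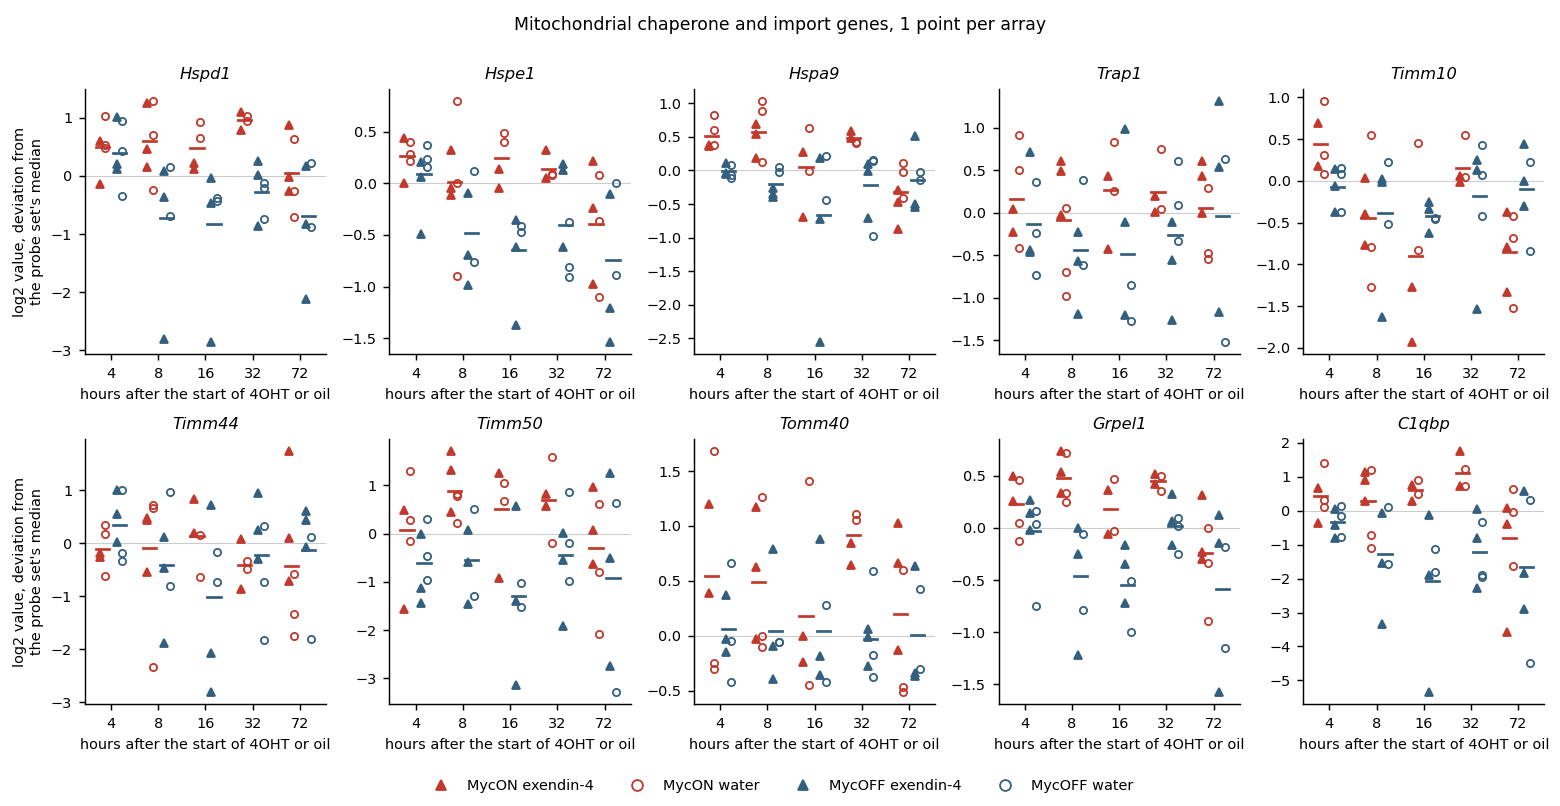
Log2 values of the 10 genes on the 52 kept arrays (y axis, deviation from the median of the probe set) by time in hours (x axis). MycON arrays (red) stand left of MycOFF arrays (blue) at each time, triangles mark exendin-4 and open circles water, and bars mark the mean of the arrays of one state at one time. The lowest points of Hspd1, Hspa9 and C1qbp all belong to MycOFF arrays, and C1qbp reaches -5.35.

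Among the matrix chaperones, both parts of the chaperonin were higher with MYC on. Hspd1 had a lowest, median and highest value of -0.71, 0.61 and 1.28 on the 25 MycON arrays, against -2.86, -0.20 and 1.02 on the 27 MycOFF arrays. Of the MycON arrays 21 lay above the MycOFF median and 5 above the highest MycOFF array. The difference was 0.90 ± 0.21 (log2, standard error), or 1.86-fold, with an adjusted p of 0.00300.

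Hspe1, its co-chaperonin, had values of -1.10, 0.08 and 0.79 on MycON arrays, against -1.54, -0.41 and 0.37 on MycOFF arrays, and 22 of 25 MycON arrays lay above the MycOFF median. The difference was 0.46 ± 0.13, or 1.38-fold, with an adjusted p of 0.0117. The probe set behind these values may also detect related transcripts, as its suffix marks a set shared between sequences. A second probe set of Hspe1, which varied little, gave 0.22 ± 0.10 and did not pass. The values of Hspd1 and Hspe1 correlated across the 52 arrays with r = 0.79, and with r = 0.70 after the mean of each of the 20 groups was removed. The pair shares the stretch of chromosome 1 printed above.

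Trap1 had values of -0.98, 0.06 and 0.91 on MycON arrays, against -1.52, -0.33 and 1.31 on MycOFF arrays, so that 0 of 25 MycON arrays exceeded the highest MycOFF array. Its difference of 0.41 ± 0.19 did not pass (adjusted p = 0.141). A second probe set of Trap1, of the kind that can bind unrelated transcripts, was higher by 0.34 ± 0.09, with an adjusted p of 0.0216 over all probe sets.

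Of the 3 members that belong to the import motor, 2 were higher with MYC on. Hspa9 had values of -0.87, 0.38 and 1.03 on MycON arrays, against -2.56, -0.05 and 0.51 on MycOFF arrays. The difference was 0.47 ± 0.14, or 1.39-fold, with an adjusted p of 0.0161. Another probe set of Hspa9 that follows the first across arrays (r = 0.77) was higher by 0.35 ± 0.08, and the 3 others, which hardly varied or can bind unrelated transcripts, ran from -0.06 to 0.12 and did not pass. The r of these 3 with the first was -0.65, -0.26 and 0.27.

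Grpel1, the exchange factor of Hspa9, had values of -0.89, 0.33 and 0.73 on MycON arrays, against -1.57, -0.16 and 0.33 on MycOFF arrays. More than in any other of the 10 genes, the MycON arrays stood above the rest, as 13 of 25 exceeded the highest MycOFF array. The difference was 0.56 ± 0.12, or 1.47-fold, with an adjusted p of 8.82e-04. Timm44, the anchor of the motor, had values of -2.33, -0.18 and 1.73 on MycON arrays, against -2.81, -0.07 and 1.01 on MycOFF arrays. Its difference was 0.09 ± 0.26 (95% interval -0.44 to 0.63, adjusted p = 0.838), and its 2 other probe sets gave -0.01 and 0.03. Neither of these followed the first closely across arrays (r = 0.06 and 0.19, in the same order). The one at -0.01 is of the kind that can bind unrelated transcripts.

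The translocases differed among themselves. Timm50, the presequence receptor, had values of -2.07, 0.57 and 1.71 on MycON arrays, against -3.29, -0.58 and 1.25 on MycOFF arrays. The difference was 1.13 ± 0.32, or 2.19-fold, with an adjusted p of 0.0131. Its 2 other probe sets hardly varied over the arrays and gave 0.01 and 0.07, neither past the threshold.

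Tomm40, the outer membrane channel, had values of -0.51, 0.60 and 1.68 on MycON arrays, against -0.42, -0.05 and 0.88 on MycOFF arrays. Its difference of 0.45 ± 0.17 (95% interval 0.11 to 0.80) missed the threshold at an adjusted p of 0.0679. Over the fits that left out 1 array at a time it ran from 0.36 to 0.55, and it passed in 7 of the 52.

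Timm10, the small chaperone of the intermembrane space, was the only one of the 10 with a negative difference. It had values of -1.93, -0.37 and 0.95 on MycON arrays, against -1.63, -0.07 and 0.45 on MycOFF arrays. The difference was -0.09 ± 0.16 (95% interval -0.41 to 0.24, adjusted p = 0.744). Timm9, the partner with which Timm10 forms its complex, was named after its values were seen, and was higher by 0.99 ± 0.21 with an adjusted p of 0.00108. The difference between the pair was not tested.

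C1qbp had the largest difference of the 10. Its values were -3.57, 0.49 and 1.74 on MycON arrays, against -5.35, -0.82 and 0.57 on MycOFF arrays. Of the MycON arrays 22 lay above the MycOFF median and 12 above the highest MycOFF array. The difference was 1.60 ± 0.37 (95% interval 0.84 to 2.36), or 3.02-fold, with an adjusted p of 0.00259. Without the 4 arrays of widest spread it was 1.49, with an adjusted p of 0.00135.

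The second probe set of C1qbp, of the kind that can bind unrelated transcripts, was higher as well, by 0.94 ± 0.16 with an adjusted p of 1.36e-04 over all probe sets. Its lowest, median and highest values were -0.69, 0.36 and 1.33 on MycON arrays, against -2.46, -0.44 and 0.57 on MycOFF arrays. The 2 probe sets did not follow each other from array to array. Their correlation was 0.18 over the 52 arrays, -0.07 over the 25 MycON arrays and -0.29 over the 27 MycOFF arrays. MycOFF arrays near 0 on the first probe set reached down to -1.41 on the second, and the MycOFF array at -5.35 on the first lay at 0.03 on the second.

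**Figure D2:**
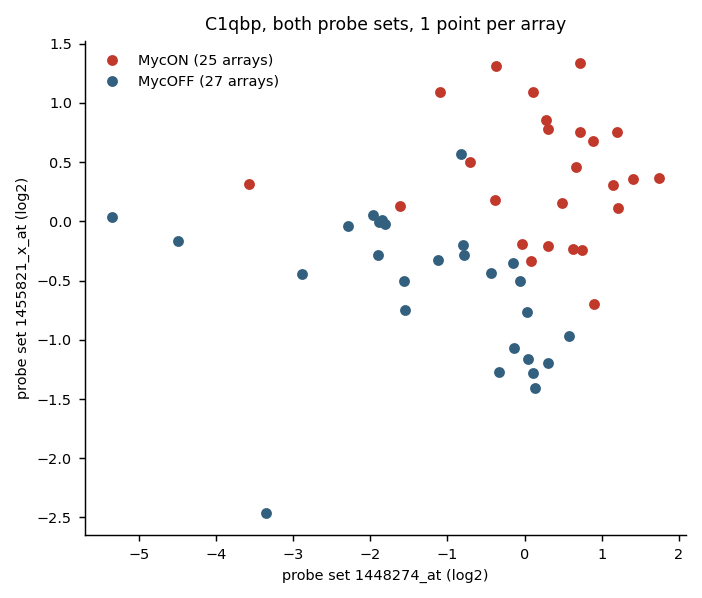
Log2 values of the 2 probe sets of C1qbp, 1 point per kept array, with MycON in red and MycOFF in blue. The first probe set, which stands for the gene, is on the x axis and the second on the y axis, and the points follow no common line (r = 0.18 over 52 arrays).

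The next comparisons separated the injections, which asked whether the difference was seen with exendin-4 and with water alike. With exendin-4, Hspd1 (1.00 ± 0.30, adjusted p = 0.0384) and Grpel1 (0.54 ± 0.16, adjusted p = 0.0429) were higher in MycON islets, 2 of 10 genes against 4.56% of all genes. C1qbp missed the threshold there, with 1.66 ± 0.52 and an adjusted p of 0.0506. With water, Grpel1 alone was higher (0.57 ± 0.17, adjusted p = 0.0379), 1 of 10 genes against 3.94% of all genes. The differences with water of the others called over both injections were 0.79 for Hspd1, 0.40 for Hspe1, 0.47 for Hspa9, 1.07 for Timm50 and 1.53 for C1qbp. Positive differences were found for 9 of 10 genes with either injection, the exceptions being Timm10 with exendin-4 (-0.20) and Timm44 with water (-0.09). These calls within one injection lay near the threshold and did not hold in every fit. They held in 39 of 52 fits for Hspd1 with exendin-4, and for Grpel1 in 37 with exendin-4 and 40 with water. Leaving out 1 array at a time ended the call of Hspd1 with exendin-4 in 13 of 52 fits (adjusted p up to 0.102, without MycON exendin-4 4 h replicate 2). It ended that of Grpel1 with exendin-4 in 15 (up to 0.0976, without MycON exendin-4 16 h replicate 1) and with water in 12 (up to 0.125, without MycOFF water 72 h replicate 3). Over these fits the count ran from 0 to 5 with exendin-4, as the share of all genes called in either direction ran from 3.83% to 6.79%, against 5.79% with all kept arrays. The 5 were called without MycOFF exendin-4 16 h replicate 2 (6.79%) or 72 h replicate 3 (6.6%). With water the count ran from 0 to 3, as the share of all genes ran from 3.76% to 6.37%, against 5.59%, and 3 were called without MycOFF water 72 h replicate 1 (6.25%). Without the 4 arrays of widest spread 0 were called with exendin-4, against 5.9% of all genes, and 2 with water, against 8.18%.

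The interaction, the MYC effect with exendin-4 minus that with water, was called for 0 of 10 genes and for 0% of all genes (limma, with 250 of 13176 genes and 0 of 10 at an unadjusted p under 0.05). Its intervals were wide. For C1qbp it was 0.12 with a 95% interval of -1.40 to 1.65, for Hspd1 0.21 with -0.66 to 1.07, and for Grpel1 -0.04 with -0.51 to 0.44.

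Exendin-4 was also compared with water within each state. With MYC on, 0 of 10 genes were called, against 0.0683% of all genes, and with MYC off 0 of 10, against 0.228% (limma; 0 of 10 at an unadjusted p under 0.05 in either state). With MYC on, Timm44 showed the widest difference, 0.52 ± 0.38 with a 95% interval of -0.25 to 1.29. Timm10 followed with -0.31 ± 0.23, and the other 8 lay between -0.25 and 0.13. With MYC off, the 10 differences lay between -0.36 for Hspd1 and 0.17 for Grpel1. The interval for Hspd1 with MYC off ran from -0.96 to 0.24, and that for Grpel1 with MYC on from -0.21 to 0.48.

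**Figure D3:**
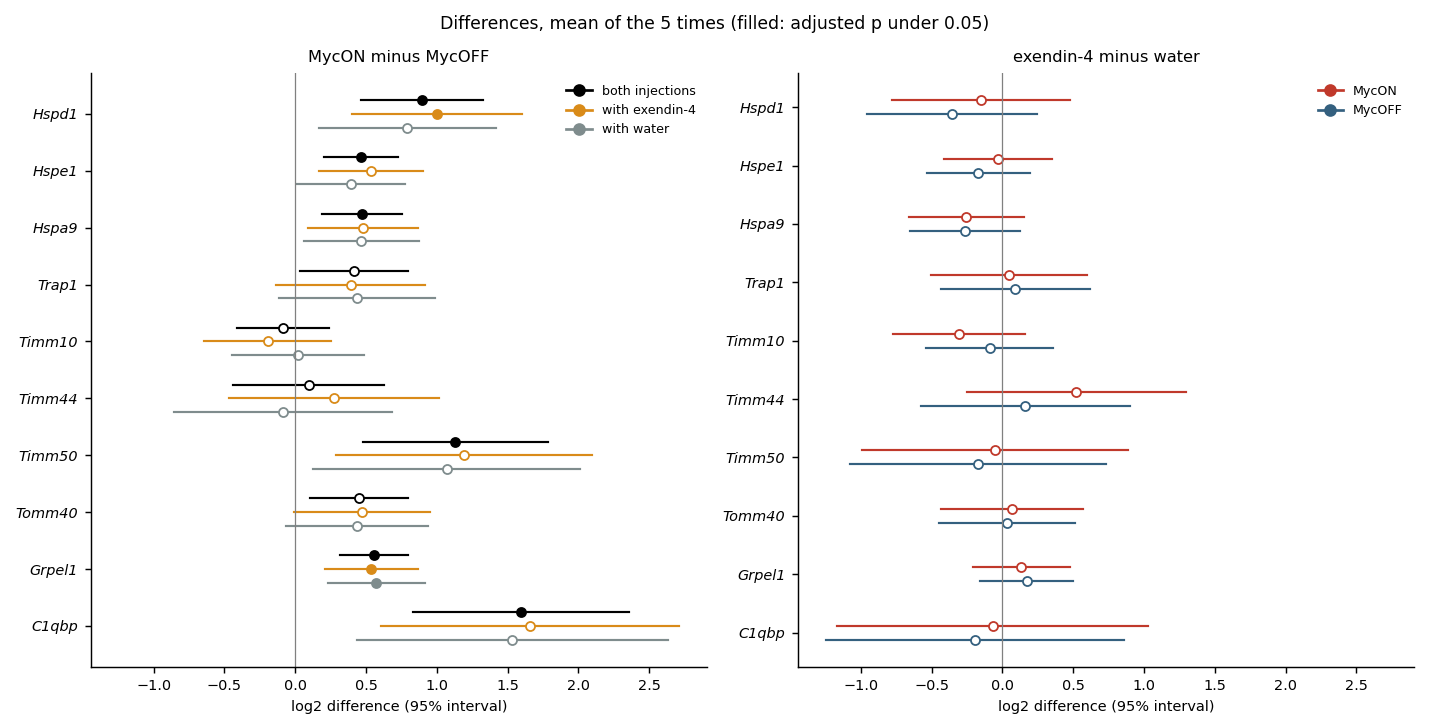
Log2 differences with 95% intervals for the 10 genes, as means of the 5 times. On the left, MycON minus MycOFF over both injections (black), with exendin-4 (orange) and with water (grey), and on the right, exendin-4 minus water in MycON (red) and MycOFF (blue) islets. Filled points passed an adjusted p of 0.05, and all 20 intervals on the right include 0.

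By time, the median of the 10 differences was widest at 16 h and narrowest at 72 h. At 4 h, 0 of 10 genes were called, against 1.58% of all genes, and the median of the 10 differences was 0.39. At 8 h Grpel1 was higher (0.94 ± 0.25, adjusted p = 0.0275), 1 of 10 against 3.00% of all genes, with a median of 0.60. The call ended without any 1 of 5 arrays at 8 h, MycON exendin-4 replicates 1 and 2, MycON water replicate 1, MycOFF exendin-4 replicate 1 and MycOFF water replicate 1. At 16 h 0 of 10 were called, against 2.06%, with a median of 0.86 (1 without MycOFF exendin-4 replicate 2), and at 32 h 0 of 10, against 2.36%, with a median of 0.61. At 72 h 0 of 10 were called, against 1.15%, and the median was 0.24. At an unadjusted p under 0.05 the counts were 0, 3, 5, 4 and 1 of 10 over the 5 times. Without the 4 arrays of widest spread the medians at the 5 times were 0.35, 0.60, 0.69, 0.61 and 0.17, and the counts were 0, 1, 0, 0 and 0 of 10, against 2.34%, 5.65%, 1.67%, 5.28% and 3.43% of all genes. The order of the times was not tested. The 4, 8, 16, 32 and 72 h comparisons rest on 5 against 6, 6 against 5, 4 against 5, 4 against 6 and 6 against 5 arrays, MycON first.

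Hspa9 was the one member whose arrays were already separated at 4 h. Its MycON values were 0.38 and 0.36 with exendin-4 and 0.60, 0.83 and 0.38 with water, against -0.05, -0.04 and 0.11 in MycOFF exendin-4 islets and -0.11, 0.08 and -0.06 in MycOFF water islets. Every MycON array thus lay above every MycOFF array, a pattern seen in 1 of 10 members and in 2.07% of all genes. The difference of 0.50 ± 0.30 did not pass (adjusted p = 0.568). At 72 h its difference was -0.19 ± 0.30, with a lowest, median and highest value of -0.87, -0.35 and 0.12 on 6 MycON arrays, against -0.55, -0.15 and 0.51 on 5 MycOFF arrays.

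At 8 h the arrays of 2 of 10 members were separated in this way, Hspa9 and Grpel1, against 3.29% of all genes. Grpel1 read 0.53, 0.73 and 0.33 in MycON exendin-4 and 0.72, 0.33 and 0.25 in MycON water islets, against -1.22, -0.25 and 0.00 in MycOFF exendin-4 and -0.78 and -0.06 in MycOFF water islets. The lowest MycON array thus stood at 0.25, and 1 MycOFF array was above 0 at all.

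At 16 h 4 of 10 members were separated, Hspd1, Hspe1, Grpel1 and C1qbp, against 3.30% of all genes. C1qbp read 0.30 and 0.74 in MycON exendin-4 and 0.49 and 0.90 in MycON water islets, against -1.90, -0.14 and -5.35 in MycOFF exendin-4 and -1.12 and -1.82 in MycOFF water islets. The lowest of these belonged to the array with the widest spread of all values. Hspd1 read 0.13 and 0.22 in MycON exendin-4 and 0.92 and 0.65 in MycON water islets, against -0.46, -0.03 and -2.86 in MycOFF exendin-4 and -0.38 and -0.44 in MycOFF water islets, with the lowest value again on that array. Without it the same 4 members were separated, against 3.56% of all genes.

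At 32 h 5 of 10 members were separated, Hspd1, Hspa9, Tomm40, Grpel1 and C1qbp, against 5.27% of all genes. Hspd1 read 1.10 and 0.80 in MycON exendin-4 and 1.03 and 0.95 in MycON water islets, against -0.86, 0.01 and 0.26 in MycOFF exendin-4 and -0.75, -0.20 and -0.12 in MycOFF water islets. C1qbp read 1.74 and 0.72 in MycON exendin-4 and 1.22 and 0.72 in MycON water islets, against -2.29, -0.80 and 0.04 in MycOFF exendin-4 and -1.97, -1.89 and -0.33 in MycOFF water islets. None of the 4 arrays of widest spread was taken at 32 h. The differences there were 1.25 ± 0.49 for Hspd1, 2.30 ± 0.86 for C1qbp and 0.95 ± 0.39 for Tomm40, none past the threshold.

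At 72 h 0 of 10 members were separated, against 0.395% of all genes, and without the arrays of widest spread 0 of 10, against 1.65%. C1qbp had a lowest, median and highest value of -3.57, -0.21 and 0.63 on 6 MycON arrays, against -4.49, -1.84 and 0.57 on 5 MycOFF arrays. Timm10 had values of -1.53, -0.74 and -0.37 on the MycON arrays, against -0.84, -0.01 and 0.45 on the MycOFF arrays, and its difference was -0.72 ± 0.34 (adjusted p = 0.443).

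The MYC effect at 72 h minus its mean over the 4 earlier times was chosen as a contrast with earlier results of these data known. It was negative for 10 of 10 genes, with a median of -0.34 against -0.02 over all genes tested. In the same contrast the mitochondrial ribosome list, described further below, had a median of -0.46 (8 of 54 genes positive). The medians were -0.24 for cytosolic and endoplasmic reticulum chaperones (12 of 31) and -0.19 for mitochondrial proteases and prohibitins (3 of 13). They were -0.13 for other import genes (17 of 38) and 0.01 for the respiratory chain (27 of 50). None of the 10 was called, against 1.40% of all genes (limma; 2 of 10 at an unadjusted p under 0.05). The 2 were Hspa9 (-0.83 ± 0.34, adjusted p = 0.249) and Timm10 (-0.79 ± 0.39, adjusted p = 0.390). With array spread as a covariate, 1 of 10 was called, against 3.4% of all genes, and with the mean over the probe sets of a gene 1 of 10, against 2.58%. Without the 4 arrays of widest spread 0 of 10 were called, against 3.38%, and the median was -0.44. Immune marker genes moved at the same time. Of 14 tested, 8 were higher in MycON islets at 72 h and 0 lower, with a median difference of 2.15, and the mean of the immune list per array had a median of 2.00 on 6 MycON arrays, against -0.25 on 5 MycOFF arrays. The stromal list had a median of 1.38 on these MycON arrays, against 0.08 on these MycOFF arrays. Their part in the member values was not tested.

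The moderated F test of the MYC effect at the 4 later times against 4 h called 0 of 10 genes, against 1.59% of all genes, with adjusted p from 0.482 for Timm10 to 0.920 for Trap1 (limma; 0 of 10 at an unadjusted p under 0.05). Within MycOFF islets the same test over time called 0 of 10 genes, against 0.00759% of all genes, and Grpel1 alone had an unadjusted p under 0.05 (0.0373).

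**Figure D4:**
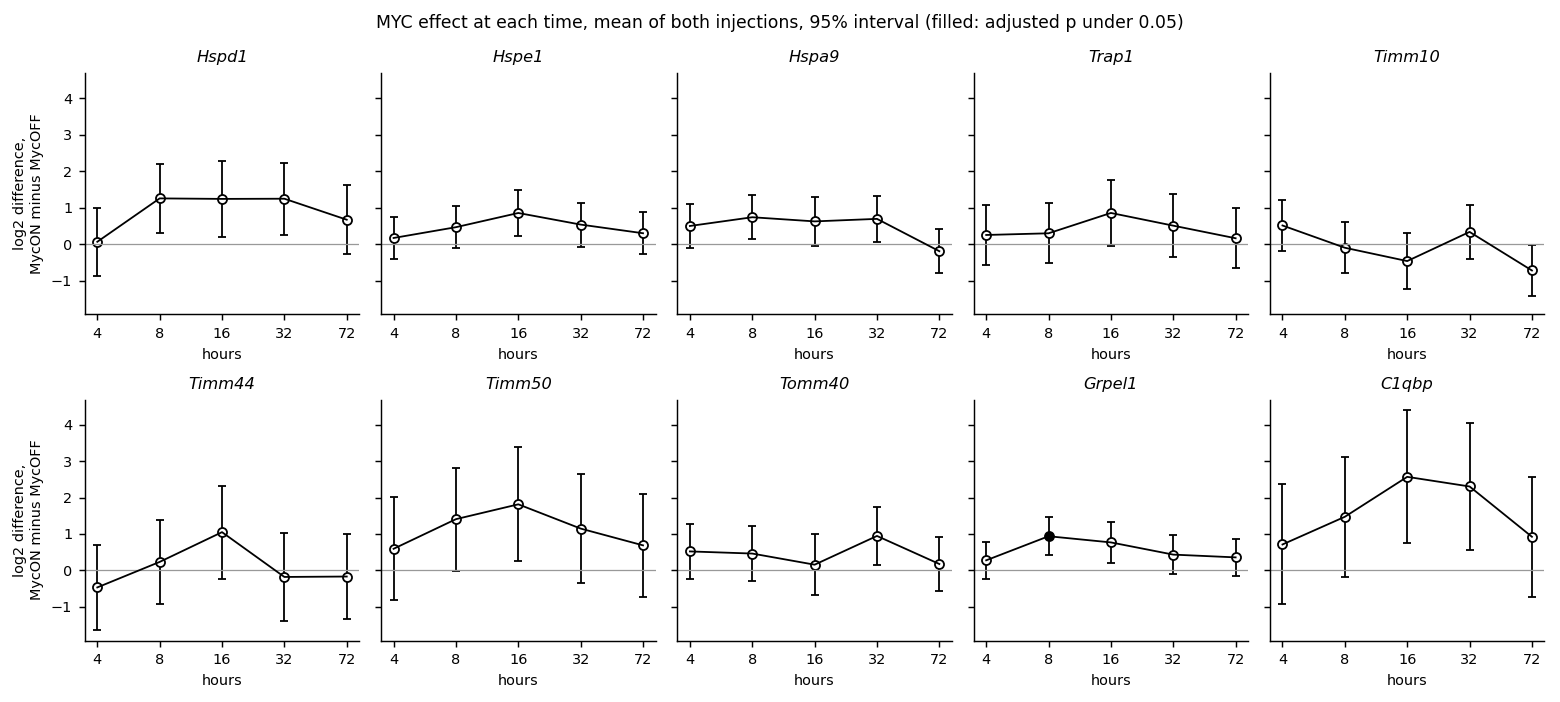
MYC effect (log2 difference, MycON minus MycOFF, mean of both injections) of each of the 10 genes at 4, 8, 16, 32 and 72 h, with 95% intervals. Filled points passed an adjusted p of 0.05, which holds for Grpel1 at 8 h alone.

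The 10 genes varied together from array to array. The correlation between pairs of genes over the 52 arrays ran from 0.21 to 0.86 over the 45 pairs, with a median of 0.53, and with group means removed from 0.16 to 0.87, with a median of 0.57. Hspd1 with C1qbp (r = 0.86) and Timm50 with C1qbp (r = 0.81) were among the closest. Across the 20 group means, Hspd1 (r = 0.92) and C1qbp (r = 0.91) followed the mean of the members most closely, and Timm10 (r = 0.41) and Timm44 (r = 0.43) least. All points share the arrays and their spread, and the mean includes the gene itself.

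Part of this common variation went with the spread of the arrays. The mean of the 10 genes per array correlated with the standard deviation of all values of that array at r = -0.60 over 52 arrays, -0.56 over the 25 MycON and -0.73 over the 27 MycOFF arrays. The mean ran from -1.07 to 0.82 with a median of 0.26 on MycON arrays, against -2.05 to 0.55 with a median of -0.45 on MycOFF arrays. Without the 4 arrays of widest spread, 6 of 10 genes were called over both injections, the same 6, against 17.3% of all genes in either direction, and the median difference was 0.43. With all kept arrays that share was 15.4%. With the spread of each array as a covariate 7 were called, against 18.3%, with Tomm40 (0.45, adjusted p = 0.0493) added to the same 6, and the median was 0.46.

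The mean of the members also went with that of the beta cell marker list, at r = 0.41 over all arrays, 0.50 over MycON and 0.74 over MycOFF arrays. The beta cell list moved the other way between states. Of 11 markers tested 0 were higher and 3 lower in MycON islets, namely Pdx1 (-0.60 ± 0.13), Ucn3 (-1.48 ± 0.33) and Slc2a2 (-0.59 ± 0.16), and the mean of the list per array ran from -0.91 to 0.72 on MycON arrays, against -0.94 to 1.14 on MycOFF arrays. Of 16 acinar markers 1 was higher and 0 lower, of 14 immune markers 8 and 0, of 12 stromal markers 0 and 0, and of 9 endothelial markers 0 and 2. Among all 13176 genes tested 1309 were higher and 722 lower. The acinar list had a correlation of -1.02e-05 with the members over the 52 arrays, the endothelial list 0.20, the immune list 0.17 and the stromal list -0.33. In the same order the values were 0.13, 0.15, -0.33 and -0.48 on MycON arrays. On MycOFF arrays they were -0.22, 0.58, 0.50 and -0.54. The part of these cells in the member values was not tested.

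**Figure D5:**
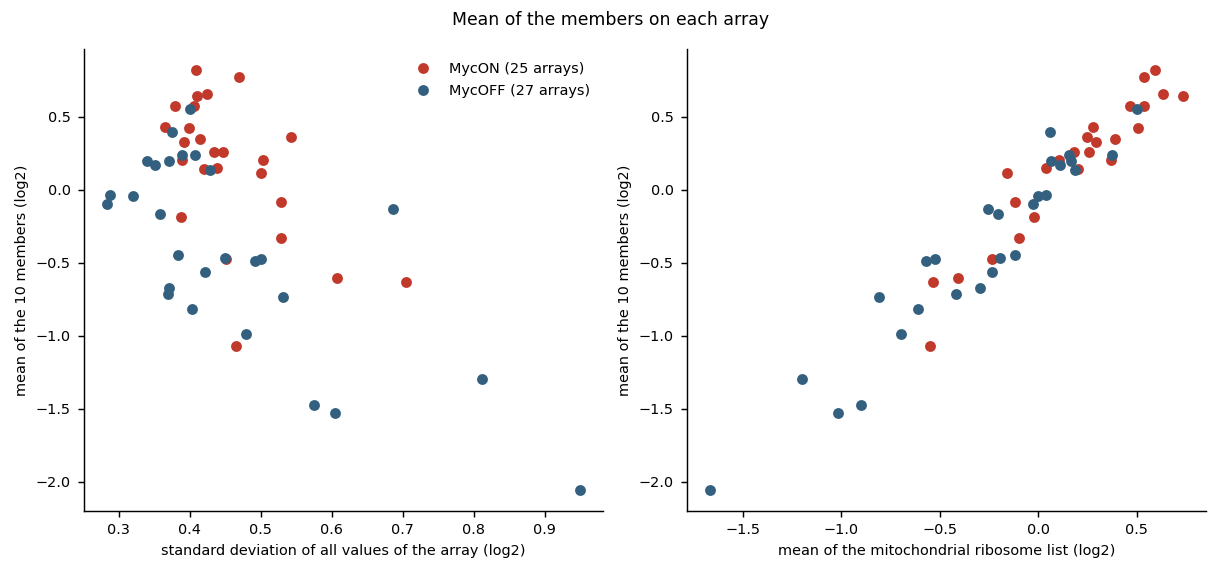
Mean log2 value of the 10 genes on each kept array (y axis), with MycON in red and MycOFF in blue. On the left it is set against the standard deviation of all values of the array (r = -0.60), and on the right against the mean of the mitochondrial ribosome list (r = 0.96).

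Of 38 other import and chaperone genes tested, 15 were higher and 0 lower in MycON islets, where 9.93% of all genes were higher, with a median difference of 0.29 against -0.03 over all genes. The 5 with the smallest adjusted p were Timm8a1 (1.44 ± 0.15), a small chaperone like Timm10, the outer membrane receptors Tomm20 (1.15 ± 0.14) and Tomm70a (0.75 ± 0.13), the inner membrane channel Timm23 (0.73 ± 0.10) and the processing peptidase subunit Pmpca (0.54 ± 0.11). Their adjusted p ran from 2.70e-08 to 3.57e-04.

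Of 13 mitochondrial proteases and prohibitins, 2 were higher and 0 lower, the scaffold protein Phb2 (1.33 ± 0.21) and the complex III assembly factor Bcs1l (0.82 ± 0.18), and the median difference was 0.36. Of 54 genes of the mitochondrial ribosome and mitochondrial gene expression, 22 were higher and 0 lower, with a median of 0.45, led by the ribosomal proteins Mrps30 (0.84 ± 0.13), Mrps25 (1.26 ± 0.22) and Mrpl40 (0.57 ± 0.11). The mean of this list per array followed that of the members at r = 0.96. Other lists did so nearly as closely. The values of r were 0.92 for other import and chaperone genes, 0.92 for proteases and prohibitins and 0.91 for the 8 MYC response genes. They were 0.88 for chaperones of the cytosol and endoplasmic reticulum and 0.85 for the respiratory chain and ATP synthase.

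Of 50 genes of the respiratory chain and ATP synthase, 10 were higher and 0 lower, with a median of 0.39, led by the complex I subunits Ndufb6 (0.50 ± 0.09) and Ndufb8 (0.56 ± 0.11) and by cytochrome c1, Cyc1 (0.70 ± 0.13). Of 31 chaperones of the cytosol and endoplasmic reticulum, 8 were higher and 1 lower, with a median of 0.36. Cct4 (0.90 ± 0.19), of the cytosolic chaperonin, and the prefoldin subunit Pfdn4 (0.70 ± 0.16) were higher, while Hspa13 (-0.96 ± 0.23), an Hsp70 relative of the endoplasmic reticulum, was lower. The medians of these lists lay close to that of the 10 members, and no test set one list against another.

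Over the 20 group means, the 5 tested genes outside the set most like the mean of the 10 were Adh5 (Pearson r = 0.973), Serbp1 (0.960), Asns (0.944), Mrps35 (0.931) and Nsun2 (0.927). Of these, Serbp1, Asns, Mrps35 and Nsun2 were higher in MycON islets, by 0.81, 0.65, 0.82 and 1.62, and Adh5 differed by 0.35 without passing the threshold (adjusted p = 0.0692). The mean they were matched to itself differs between the states on the same arrays, so these differences are not independent of the choice.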

How the data were processed

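RNA of laser-captured islets was hybridised to Affymetrix arrays (islets from 15 µm sections, 6 µg of RNA, per the labels' protocols). The deposited log2 values are centred by probe set on the median of the 60 arrays (100% of medians at 0, tolerance 1e-04). MAS5 and GCRMA are named in the submitters' processing notes without role or version, and what else was done is not given in the sources used here. Base 2 was inferred from the range, -12.3 to 12.8. The submitters left out 8 arrays for poor reproducibility. Of 45101 probe sets, 34945 had 1 gene symbol. Those whose interquartile range reached its 40th percentile (0.101) were kept, and each gene was read from its most variable set. A low-mean filter cannot be used on centred values.

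One limma 3.58.1 model (R 4.3.3, data.table, version 1.17.8) with 20 group means, moderated by eBayes (32 residual, 2.75 prior degrees of freedom), gave all contrasts, averaged over times with equal weight. A call is a Benjamini-Hochberg adjusted p under 0.05. The procedure was checked on simulated data. Array number limits the precision. The members, the gene lists and the contrast of 72 h with the earlier times were chosen with earlier results of these data known. All 10 members are named, with up to 5 called genes of the import list and up to 3 of each other list by smallest adjusted p, and the 5 genes most alike. Replicate numbers did not pair the arrays (66 same-number pairs, r from -0.579 to 0.446, 15 over 0.1). Alternatives covered the arrays, scaling, filter, probe sets, blocks, weights and single arrays. Promoters came from RefSeq (GRCm38.p6), and figures from matplotlib 3.10.9 (Python 3.11.15).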

Additional observations from a re-analysis of the deposited data

Results flagged for a closer look

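The 8 arrays that the submitters left out were used in no comparison above. They were of MycON exendin-4 islets at 4, 16 and 32 h, MycON water at 16 and 32 h, and MycOFF water at 8, 16 and 72 h. The bound used below comes from MycOFF arrays alone, so left-out MycON arrays above it also carry the difference between the states. In 7 of the 10 genes the highest of them lay above the highest of the 27 kept MycOFF arrays. The share of all genes with this pattern was not determined, so the count does not set the 10 genes apart from others. Timm44 reached 2.31, against 1.01 on the highest kept MycOFF array, and Hspe1 reached 1.63, against 0.37. C1qbp reached 1.68, against 0.57, and 6 of the 8 arrays lay above that bound. These read 1.23, 1.05, 1.68 and 0.80 on MycON arrays and 0.70 and 1.22 on MycOFF arrays. Timm10 reached 1.13, against 0.45, Tomm40 1.15, against 0.88, and Grpel1 0.80, against 0.33. Hspa9 reached 0.53, against 0.51. For Hspe1, Timm10, Timm44 and Grpel1 at least 1 left-out array also lay above every kept array, again without a share of all genes to set beside it. The left-out arrays had a standard deviation of all values from 0.969 to 1.40, against 0.284 to 0.949 on the kept arrays, and the part of this spread in the high values was not tested.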

How the results depend on the processing

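Over both injections the count of genes called stayed within 5 and 7 of 10 under the 9 alternatives of analysis. The share of all genes called in either direction ran from 8.14% to 19.8%, against 15.4% in the main fit. When each of the 52 arrays was left out in turn, the count was 6 or 7 and the share ran from 13.1% to 17.1%. The median difference ran from 0.39 to 0.53 under the alternatives and from 0.44 to 0.52 without single arrays. With all 60 arrays Hspe1 was no longer called (0.22, adjusted p = 0.459). 2 further probe sets of Hspa9, which hardly varied, were negative (-0.011 and -0.063). Under the 9 alternatives the difference of Hspa9 went down to 0.18 and that of Timm50 to 0.40, and both were called in all 9. Counts within one injection or time depended on the setting, and the share of all genes called moved too, given in parentheses. With water the count was 1 (5.59%) and became 0 with all 60 arrays (1.34%) and with a replicate block within time (3.85%), 2 with only the arrays compared (6.43%) and without the 4 arrays of widest spread (8.18%), 3 with array weights (7.76%) and with the mean over probe sets (7.08%), 4 with quantile normalization (8.82%) and 6 with array spread as a covariate (8.07%). With exendin-4 it was 2 (5.79%) and became 0 with no filter (3.42%), with only the arrays compared (3.94%) and without the 4 widest arrays (5.9%), 1 with all 60 arrays (4.58%) and with array weights (6.34%), and 4 with array spread as a covariate (6.69%). At 8 h it was 1 (3.93%) and became 0 with all 60 arrays (1.53%), only the arrays compared (2.29%) and a replicate block within time (3.35%), 2 with quantile normalization (6.2%), and 3 with the mean over probe sets (5.62%), array weights (9.18%) and array spread as a covariate (5.31%). At 32 h it was 0 (3.31%) and became 1 with the mean over probe sets (4.41%), 2 with only the arrays compared (4.41%) and array spread as a covariate (4.89%), 3 with quantile normalization (8.44%) and 4 with array weights (13%). For 72 h minus earlier times it was 0 (1.4%) and became 1 with the mean over probe sets (2.58%) and array spread as a covariate (3.4%). Leaving out 1 array gave counts from 0 to 3 with water (3.76% to 6.37%) and from 0 to 5 with exendin-4 (3.83% to 6.79%). At 8 h the count ran from 0 to 1 (1.62% to 4.55%) and at 16 h from 0 to 1 (0.493% to 5.22%). The replicate block gave 7 (15.4%) over both injections, 1 (5.21%) with water and 3 (5.59%) with exendin-4. Within time it gave 7 (14.1%), 0 (3.85%) and 2 (5.59%), in the same order. The cause of these shifts was not tested. The fit without the widest arrays and that with array spread as a covariate were chosen after seeing the data. The block within time gives no value for the change over time with MYC off.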
